A study of Mus musculus with 8 samples.

Results

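Transcripts of calcium channels, intracellular calcium release channels and calcium pumps were followed in the cortex of mouse embryos that lacked the kinase NUAK1. The members were all rows of the count table whose symbol names a voltage-gated calcium channel subunit (Cacna, Cacnb1 to Cacnb4, Cacng1 to Cacng8), a ryanodine receptor (Ryr1 to Ryr3), an IP3 receptor (Itpr1 to Itpr3), a calcium pump (Atp2a, Atp2b, Atp2c), a store sensor (Stim1, Stim2) or a store-operated channel (Orai1 to Orai3), with at least 1 count in the 8 libraries. This gave 45 genes out of 16524 rows with a count. No row bore the symbol Cacng8, so this gene could not be read. The products of 32 of them sit at the plasma membrane, those of 11 in the endoplasmic reticulum and those of 2 in the Golgi apparatus, and these places were kept apart.

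RNA was taken from whole cortices at E18.5 (embryonic stage, shortly before birth), from 4 KO embryos and 4 WT embryos. KO embryos carried a constitutive inactivation of Nuak1, present in all cells, and mice of this genotype do not survive birth. WT embryos came from the same litters, no group was treated, and the colony had a C57Bl/6JRj background. Sample labels list 2 males among KO and 1 among WT embryos and 3 litters, but the columns of the table give only the genotype and a running number, so litter and sex could not be tied to a library and libraries are called by genotype and number here, as in KO library R1.

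Calcium enters neurons through voltage-gated channels, which consist of a pore-forming alpha1 subunit and of auxiliary alpha2delta and beta subunits that bring the pore to the surface and tune its gating. A further reserve is held in the endoplasmic reticulum, filled by SERCA pumps and released through ryanodine receptors, which open in response to calcium itself, and through IP3 receptors, which open downstream of receptors coupled to phospholipase C. When the store empties, STIM sensors in its membrane open Orai channels at the surface, while plasma membrane pumps and Golgi pumps remove calcium from the cytosol.

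Libraries held between 11027082 and 27014858 counts in KO and between 9643711 and 18940484 in WT, and the members took 0.428% of all counts. Nuak1 had 11.1 to 20.5 normalized counts in KO and 877 to 1445 in WT, so all columns followed their genotype label. Normalized counts are counts scaled to a common effective library size after TMM normalization, and levels between genes are compared as counts per kilobase of exon per 1000000 counts (CPKM). One library stood apart: the 12 markers of meningeal fibroblasts, the connective tissue cells of the membranes around the brain, summed to 11230 normalized counts in KO library R1 and to 378 to 679 in the other 7 libraries. Endothelial markers summed to 8859 in that library against 6066 to 7109 in the other 3 KO libraries and 6510 to 6881 in WT. Results that the text leads with are therefore also given without KO library R1.

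Of the calcium channel and pump transcripts, Ryr3 was the member farthest from equality between genotypes. Of the 45 members, 39 passed the filter on low counts and were tested. A fold change under 0.25 on the log2 scale in either direction was found for 33 of these, or 84.6%, and for 86.4% of all genes tested, so the members did not stand apart in this respect. The median log2 fold change of KO against WT was -0.017 over the tested members and -0.012 over all 12699 genes tested. It was -0.036 over the 28 tested plasma membrane members, of which 9 were higher and 19 lower, and 0.024 over the 10 tested members of the endoplasmic reticulum, of which 6 were higher and 4 lower. Over all genes tested, 45.6% were higher in KO. Without KO library R1, the median was -0.0017 for the plasma membrane and 0.0184 for the endoplasmic reticulum. The sign of both medians turned without WT library R4 (0.0111 and -0.0041), and the difference between them was not tested.

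No member passed an adjusted p of 0.05 when p values of the quasi-likelihood test of edgeR were adjusted by Benjamini-Hochberg, where 0.0709% of all genes tested did. DESeq2 called 1 member, Ryr3, against a background of 0.551% of genes. At an unadjusted p under 0.05, 4 members were found (Ryr3, Itpr3, Atp2c1 and Cacng3), with 7.69% of all genes as background. The thresholds of the study (unadjusted p under 0.05 and a log2 fold change beyond 0.25 in either direction) were passed by 3 members, where 4.25% of all genes passed. Of these, Itpr3 was higher in KO (background 2.45%), and Ryr3 and Cacng3 were lower (background 1.8%). Normalized counts did not overlap between the genotypes for 3 members (Ryr3, Itpr3 and Atp2c1) and for 4.49% of all genes. Without KO library R1, the thresholds of the study were again passed by 3 members, with Ryr3 lower and Itpr3 and Cacna2d1 higher. With 0 to 4 genes under any of these rules, the counts are no result about the members as a group, and they are read gene by gene in what follows. In whole tissue, fewer cells of a type and less RNA per cell cannot be told apart.

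**Figure D1:**
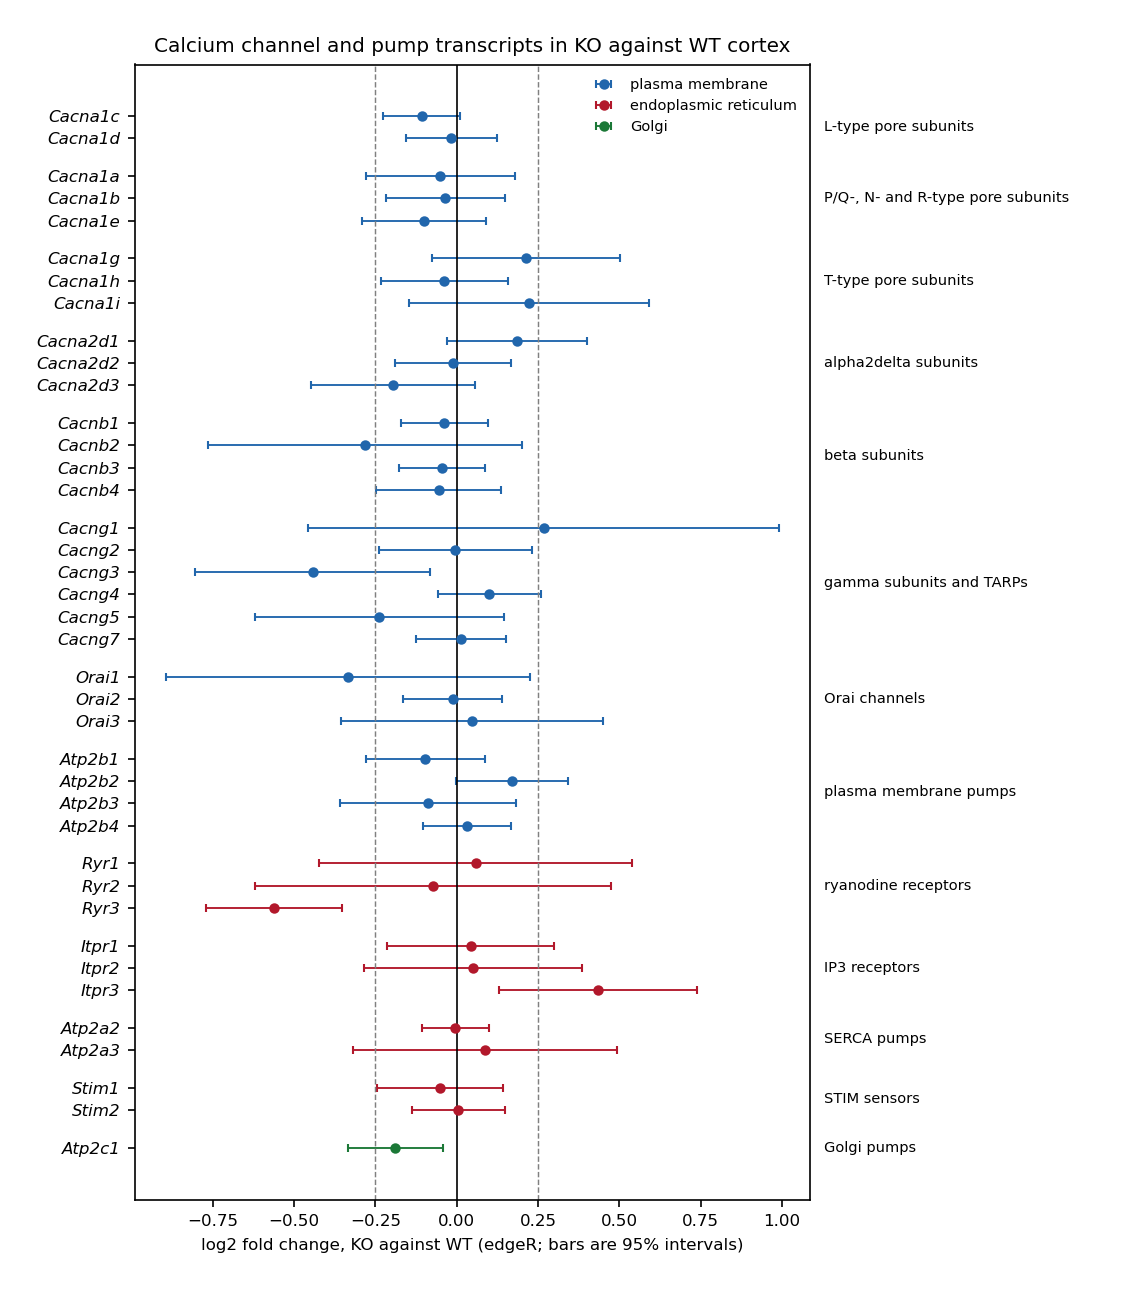
Log2 fold change of KO against WT for each of the 39 tested members, grouped by family, with bars for the 95% interval and dashed lines at 0.25 in both directions. Ryr3 (-0.56), Itpr3 (0.43), Cacng3 (-0.44) and Atp2c1 (-0.19) have intervals that leave out 0; most other members lie close to 0, with wide intervals for the rarest ones such as Cacng1 and Orai1.

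Ryr3, a ryanodine receptor present in brain and in several other tissues, lies on chromosome 2 of NCBIM37 from 112471512 to 113057253 on the minus strand. It had 2687, 3739, 3219 and 3574 normalized counts in KO libraries R1 to R4 and 4518, 4825, 5348 and 4831 in WT libraries R1 to R4. Every KO library was thus below every WT library, and the highest KO value stood well under the lowest WT value. Mean counts were 3305 ± 466 (SD, n = 4) for KO and 4880 ± 344 (SD, n = 4) for WT. The log2 fold change was -0.56 (standard error 0.095, 95% interval -0.77 to -0.35), which is a difference of -32.3%. By edgeR's quasi-likelihood test the p was 9.89e-05, the rank 16 of the 12699 genes, and the adjusted p 0.0763, while DESeq2 gave an adjusted p of 1.61e-05. Ryr3 was therefore past the thresholds of the study and past the adjusted threshold with DESeq2, but not with edgeR on the filtered genes. Without a filter on low counts, edgeR's adjusted p was 0.0499, and with the length trend removed it was 0.0418.

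KO library R1 had the lowest Ryr3 count and also the highest meningeal and endothelial marker sums. Without it the log2 fold change of Ryr3 was -0.47 (standard error 0.070, adjusted p = 0.0878 by edgeR's test), so the direction did not rest on that library. Some markers of projection neurons also differed by genotype at an unadjusted p under 0.05 by edgeR's test. Bcl11b (log2 fold change -0.30) and Fezf2 (-0.36), which specify deep-layer neurons, were lower. Cux1 (0.28) and Cux2 (0.20), which mark upper-layer neurons, were higher. Deep-layer genes did not all go this way: Tbr1 was at 0.086 and Foxp2, from the striatal list, at 0.35. Of the 11 tested projection neuron markers, 7 were higher in KO, against 45.6% of all genes tested. The part of these markers in the Ryr3 value was not tested. Exons of Aven, on the opposite strand, cover 5.17% of the exon length of Ryr3, and the strand setting of the counting is not given in the sources used here. Aven had 44.1 to 60.6 normalized counts in KO and 28.7 to 57.0 in WT, and the part of this overlap in the Ryr3 value was not tested.

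The other two ryanodine receptors varied strongly among embryos of the same genotype. Ryr1, the release channel of skeletal muscle that is also present in brain, had 1616, 1327, 2036 and 1807 normalized counts in the KO libraries and 1899, 2250, 1394 and 954 in the WT libraries, with a coefficient of variation of 35.0% in WT. Ryr2, the release channel of the heart and a major one of the adult brain, had 697, 709, 647 and 1058 in KO and 859, 641, 522 and 1292 in WT, with a coefficient of variation of 40.9% in WT. WT library R4 held the lowest Ryr1 and the highest Ryr2 count of all, and both genes overlapped widely between genotypes. The skeletal muscle markers Myog and Ckm were at 0 in all libraries, and the 10 markers of that list summed to 31.7 to 81.1 normalized counts. These counts are not scaled to length, and the part of muscle in the Ryr1 values was not tested.

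Per length, Ryr3 was the leading ryanodine receptor of the embryonic cortex in both genotypes. Its level was 11.3 ± 1.59 CPKM in KO and 16.7 ± 1.18 in WT (SD, n = 4), compared with 6.69 ± 1.18 and 6.40 ± 2.24 for Ryr1 and 2.59 ± 0.628 and 2.76 ± 1.129 for Ryr2. Ryr3 made up 54.9% ± 5.3 of the summed ryanodine receptor level in KO and 64.7% ± 5.8 in WT, whereas the share of Ryr1 was 32.6% ± 5.4 in KO and 24.5% ± 7.6 in WT. The summed level of the family ranged from 17.9 to 22.9 in KO and from 24.6 to 27.5 in WT, without overlap.

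**Figure D2:**
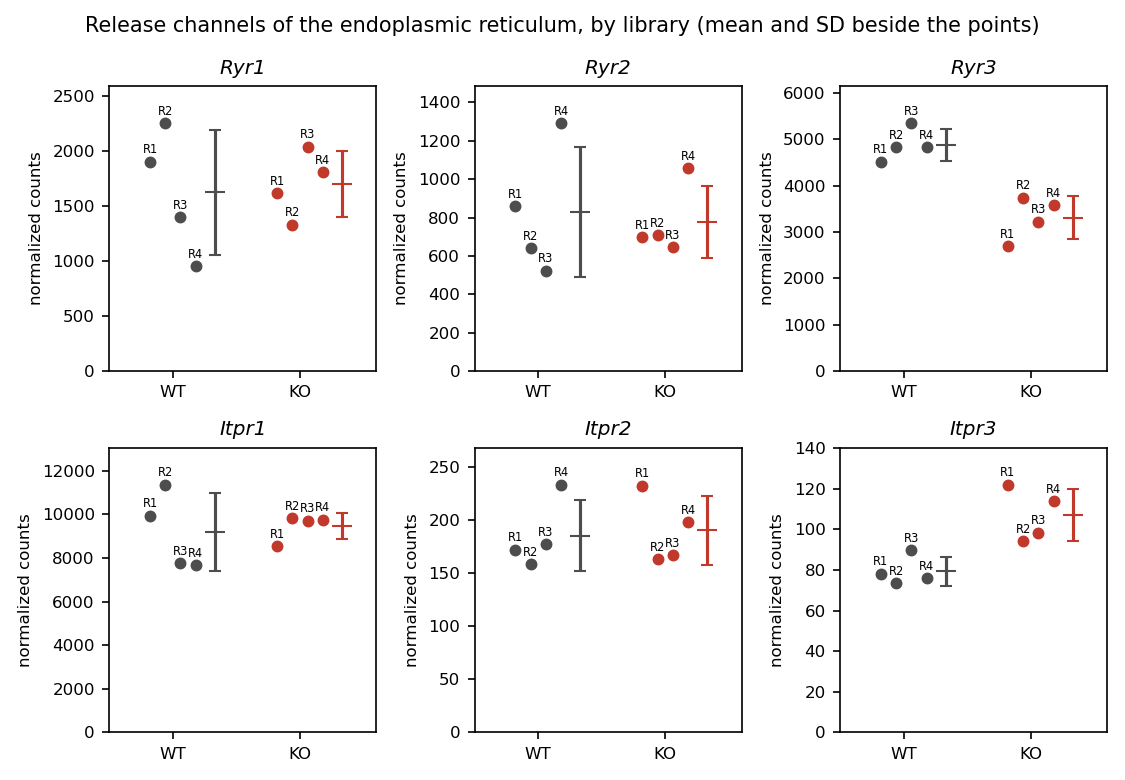
Normalized counts of the 3 ryanodine receptors and the 3 IP3 receptors in each WT (grey) and KO (red) library, with the mean and SD (n = 4) beside the points; axes start at 0. Ryr3 points of KO (2687 to 3739) lie below those of WT (4518 to 5348) and Itpr3 points of KO lie above those of WT, whereas Ryr1, Ryr2, Itpr1 and Itpr2 overlap.

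IP3 receptor transcripts came almost entirely from Itpr1, the main neuronal form, which made up 97.2% ± 0.6 of the summed level per length in KO and 97.4% ± 0.7 in WT. Itpr1 had 8538, 9825, 9713 and 9750 normalized counts in KO and 9931, 11356, 7749 and 7658 in WT. The WT libraries fell on both sides of the KO libraries, and the log2 fold change was 0.043 (standard error 0.12, 95% interval -0.21 to 0.30), a range that still holds moderate changes in either direction. Itpr2, found in glia and many other cell types, had 163 to 232 normalized counts in KO and 158 to 233 in WT.

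Itpr3, the IP3 receptor typical of epithelial and secretory cells, was the member farthest above equality. It lies on chromosome 17 from 27194249 to 27259168 on the plus strand and had 122, 94.3, 98.4 and 114 normalized counts in KO and 78.1, 73.6, 89.8 and 76.0 in WT. The KO values all exceeded the WT values, by a small margin between KO library R2 and WT library R3. The log2 fold change was 0.43 (standard error 0.14, 95% interval 0.13 to 0.74), with a p of 0.00968 and an adjusted p of 0.526 by edgeR's quasi-likelihood test. The level was low, with 0.721 ± 0.0871 CPKM in KO and 0.535 ± 0.0485 in WT (SD, n = 4), or 1.3% and 1.0% of the summed IP3 receptor level. KO library R1 had the highest Itpr3 count, and without it the log2 fold change was 0.38 (adjusted p = 0.832 by edgeR's test). Microglia markers, which summed to 1258 in that library, summed to 649 to 901 in the other 3 KO libraries and to 632 to 892 in WT, with 9 of 9 tested genes higher in KO. Of the 14 endothelial markers, 13 were higher in KO, among them Cldn5, a tight junction protein (log2 fold change 0.38, 0.33 to 0.46 with each library left out), and Emcn, a surface protein of vessels (0.62, 0.45 to 0.74), both at an unadjusted p under 0.05. Only these 2 endothelial markers passed the thresholds of the study, and Slco1c1 was lower in KO (-0.12). Over all genes tested, 45.6% were higher in KO. Without KO library R1, the median log2 fold change fell from 0.22 to 0.090 for endothelial and from 0.31 to 0.15 for microglia markers. The part of either list in the Itpr3 value was not tested.

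Refilling of the store rests on SERCA pumps, and of these Atp2a2 was the most abundant of all 45 members per length. It reached 107 ± 3.43 CPKM in KO and 107 ± 2.79 in WT (SD, n = 4) and made up 99.5% of the summed SERCA level in both genotypes. Its normalized counts were 9686, 10454, 9919 and 9992 in KO and 10412, 9801, 10030 and 9940 in WT. The genotypes overlapped throughout, and the log2 fold change of -0.0049 (standard error 0.047, 95% interval -0.11 to 0.099) leaves little room for a change in either direction. Atp2a3, found mainly outside the nervous system, had 36.5 to 45.9 normalized counts in KO and 33.0 to 45.6 in WT.

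Of the store sensors, Stim2, which responds to small drops of store calcium, was the more abundant, with 70.5% ± 1.8 of the summed STIM level in KO and 69.5% ± 2.2 in WT. Stim2 had 819, 864, 858 and 779 normalized counts in KO and 817, 899, 787 and 799 in WT, with a log2 fold change of 0.0044 (standard error 0.065, 95% interval -0.14 to 0.15). Stim1, the sensor of larger depletion, had 236 to 260 normalized counts in KO and 238 to 274 in WT. Both sensors were thus measured with little spread and with overlapping values.

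Orai2 was the leading pore of store-operated entry, with 72.1% ± 2.5 of the summed Orai level in KO and 71.4% ± 4.2 in WT. It had 439, 461, 452 and 439 normalized counts in KO and 439, 473, 423 and 471 in WT, and a log2 fold change of -0.012 (standard error 0.069, 95% interval -0.16 to 0.14). Orai3 had 63.7 to 89.7 normalized counts in KO and 58.7 to 82.8 in WT, and Orai1, the pore best known from lymphocytes, had 21.6 to 30.7 in KO and 21.9 to 38.3 in WT, where counts of this size leave wide intervals.

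The Golgi pump Atp2c1, which loads the Golgi with calcium and manganese, was abundant and lower in KO. It lies on chromosome 9 from 105313693 to 105429649 on the minus strand and had 3364, 3798, 3687 and 3512 normalized counts in KO and 3927, 3813, 4049 and 4598 in WT. The ranges did not overlap, but KO library R2 and WT library R2 differed by a few counts only. The means were 3590 ± 191 and 4097 ± 348 (SD, n = 4), a log2 fold change of -0.19 (standard error 0.067, 95% interval -0.34 to -0.043), with a p of 0.0161 and an adjusted p of 0.556 by edgeR's quasi-likelihood test. The fold change was under the threshold of the study. Without KO library R1 it was -0.15, with an unadjusted p of 0.0532 by edgeR's test, and without WT library R4 it was -0.12. The second Golgi pump, Atp2c2, had 3 counts in all libraries together and was not tested.

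Voltage-gated pores were headed by Cacna1h and Cacna1b, and the summed level of the 10 pore genes was 98.2 ± 7.80 CPKM in KO and 99.2 ± 3.18 in WT (SD, n = 4). The P/Q-, N- and R-type pores, which drive transmitter release, made up 37.0% ± 0.7 of this sum in KO and 38.1% ± 0.6 in WT, the low-threshold T-type pores 36.9% ± 2.1 and 34.8% ± 1.4, and the L-type pores, which couple activity to transcription, 26.1% ± 1.6 and 27.1% ± 1.2. No pore gene had an unadjusted p under 0.05. The split of pore transcripts among these types overlapped between genotypes for all 3 types.

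Among release-linked pores, Cacna1b, the N-type pore, had 2691, 3167, 2964 and 3370 normalized counts in KO and 3037, 2746, 3360 and 3370 in WT, with a log2 fold change of -0.035 (standard error 0.083, 95% interval -0.22 to 0.15). Cacna1a, the P/Q-type pore, had 1162 to 1529 in KO and 1189 to 1654 in WT, and Cacna1e, the R-type pore, 1990 to 2386 and 2010 to 2620. The N-type pore was the most abundant of the 3 at this stage, at 51.1% ± 3.0 of their summed level in KO and 50.3% ± 3.9 in WT. The P/Q-type pore, which takes over release at many mature synapses, stood at 19.7% in both genotypes.

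Of the L-type pores, Cacna1c had 2200, 2056, 2049 and 2301 normalized counts in KO and 2226, 2318, 2398 and 2338 in WT. Only KO library R4 reached into the WT range, and the log2 fold change was -0.11 (standard error 0.054, 95% interval -0.23 to 0.011), with a p of 0.0714 and an adjusted p of 0.694 by edgeR's quasi-likelihood test. Cacna1d, the other neuronal L-type pore, had 1510 to 1763 in KO and 1546 to 1748 in WT. Among T-type pores, Cacna1h had 2624, 3155, 3043 and 3476 in KO and 3112, 2882, 3580 and 3074 in WT. The log2 fold change was -0.039 (standard error 0.089, 95% interval -0.23 to 0.16). Cacna1g had 1776 to 2893 in KO and 1732 to 2150 in WT, with the highest value in KO library R4, and Cacna1i, the rarest of the 3, had 537 to 778 and 397 to 665.

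Auxiliary alpha2delta subunits, which traffic pores to the surface and include the binding site of gabapentin, were led by Cacna2d1. It had 3068, 4073, 3762 and 3461 normalized counts in KO and 3109, 2989, 3698 and 2836 in WT. KO libraries R2 and R3 were above all WT libraries and KO libraries R1 and R4 lay inside the WT range, and the log2 fold change was 0.18 (standard error 0.098, 95% interval -0.031 to 0.40), with a p of 0.0857 and an adjusted p of 0.712 by edgeR's quasi-likelihood test. Cacna2d3 had 1067 to 1199 in KO and 1070 to 1677 in WT, and Cacna2d2 had 901 to 1072 and 897 to 1115. In the summed level of the family Cacna2d1 held 47.4% ± 2.4 in KO and 42.0% ± 5.4 in WT, and Cacna2d3 34.4% ± 1.5 and 39.6% ± 6.3, so the opposite shifts stayed within the spread of WT libraries.

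Cytosolic beta subunits came mostly from Cacnb3, the second member by level per length, with 67.6 ± 4.60 CPKM in KO and 69.7 ± 3.29 in WT (SD, n = 4). Cacnb3 had 3264, 3631, 3297 and 3738 normalized counts in KO and 3578, 3369, 3769 and 3662 in WT. The log2 fold change was -0.045 (standard error 0.060, 95% interval -0.18 to 0.088). The shares of the family were alike in both genotypes to within 1 SD, at 76.6% in each for Cacnb3, 18.2% in each for Cacnb1 and 4.7% in each for Cacnb4. Cacnb2 was rare, with 50.7 to 74.2 normalized counts in KO and 62.1 to 111 in WT. All 4 beta subunit genes had values below equality, with a median of -0.050, where 45.6% of all genes tested were higher in KO. None of the 4 had an unadjusted p under 0.05. With single libraries left out, Cacnb1 reached 0.010 and Cacnb4 0.0032, so the shared direction was not stable.

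Gamma subunits are mostly TARPs, which deliver AMPA-type glutamate receptors to synapses rather than shaping calcium currents. Cacng3, a TARP of cortical neurons on chromosome 7 from 129815258 to 129912905, had 65.3, 92.7, 79.8 and 68.8 normalized counts in KO and 98.6, 92.0, 97.8 and 130 in WT. Only KO library R2 reached the lowest WT value, and WT library R4 was the highest. The means were 76.7 ± 12.4 and 105 ± 17.2 (SD, n = 4), a log2 fold change of -0.44 (standard error 0.16, 95% interval -0.81 to -0.081), with a p of 0.0209 and an adjusted p of 0.592 by edgeR's quasi-likelihood test. Cacng3 no longer passed the thresholds of the study without KO library R1, KO library R4 or WT library R4, and without WT library R4 its log2 fold change was -0.33.

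Cacng7 was the most abundant of the gamma subunit genes with a row, which leave out Cacng8. It had 1174, 1137, 999 and 1048 normalized counts in KO and 1098, 1059, 1054 and 1100 in WT. The log2 fold change was 0.012 (standard error 0.063, 95% interval -0.13 to 0.15). Cacng4 had 687 to 776 in KO and 623 to 730 in WT, Cacng2, the founding TARP known as stargazin, 318 to 373 and 293 to 400, and Cacng5 46.1 to 54.7 and 49.0 to 67.8. Cacng1, a gamma subunit of the skeletal muscle channel, was at 12.2 to 17.5 in KO and 7.01 to 17.2 in WT. All of these gamma subunit genes overlapped between genotypes.

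Calcium extrusion at the surface was led by Atp2b1, which made up 66.2% ± 1.5 of the summed plasma membrane pump level in KO and 68.4% ± 1.6 in WT. Atp2b1 had 5100, 5805, 6083 and 5836 normalized counts in KO and 6198, 5707, 5476 and 7059 in WT. The log2 fold change was -0.097 (standard error 0.083, 95% interval -0.28 to 0.086). It is the only member on chromosome 10, where Nuak1 itself lies, at a distance of 14.5 Mb. Atp2b2, the fast pump of neurons and hair cells, had 1594 to 2020 in KO and 1463 to 1694 in WT, Atp2b3 459 to 588 and 456 to 689, and Atp2b4 1119 to 1268 and 1103 to 1241. The pumps thus overlapped between genotypes in each case.

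Across the tested members, levels per length spanned from 0.466 CPKM for Atp2a3 to 107 for Atp2a2, with 17 members at 10 or more and 7 under 1. Store filling (Atp2a2), beta subunits (Cacnb3), release (Itpr1), extrusion (Atp2b1) and Golgi uptake (Atp2c1) each contributed 1 of the 5 most abundant members. SERCA pumps, beta subunits, plasma membrane pumps, IP3 receptors and ryanodine receptors stood in this order in both genotypes. The summed level of the SERCA pumps was 107 in KO and 108 in WT, that of the beta subunits 88.2 and 91.1, that of the plasma membrane pumps 73.0 and 75.7, that of the IP3 receptors 56.4 and 54.6, and that of the ryanodine receptors 20.6 and 25.8.

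**Figure D3:**
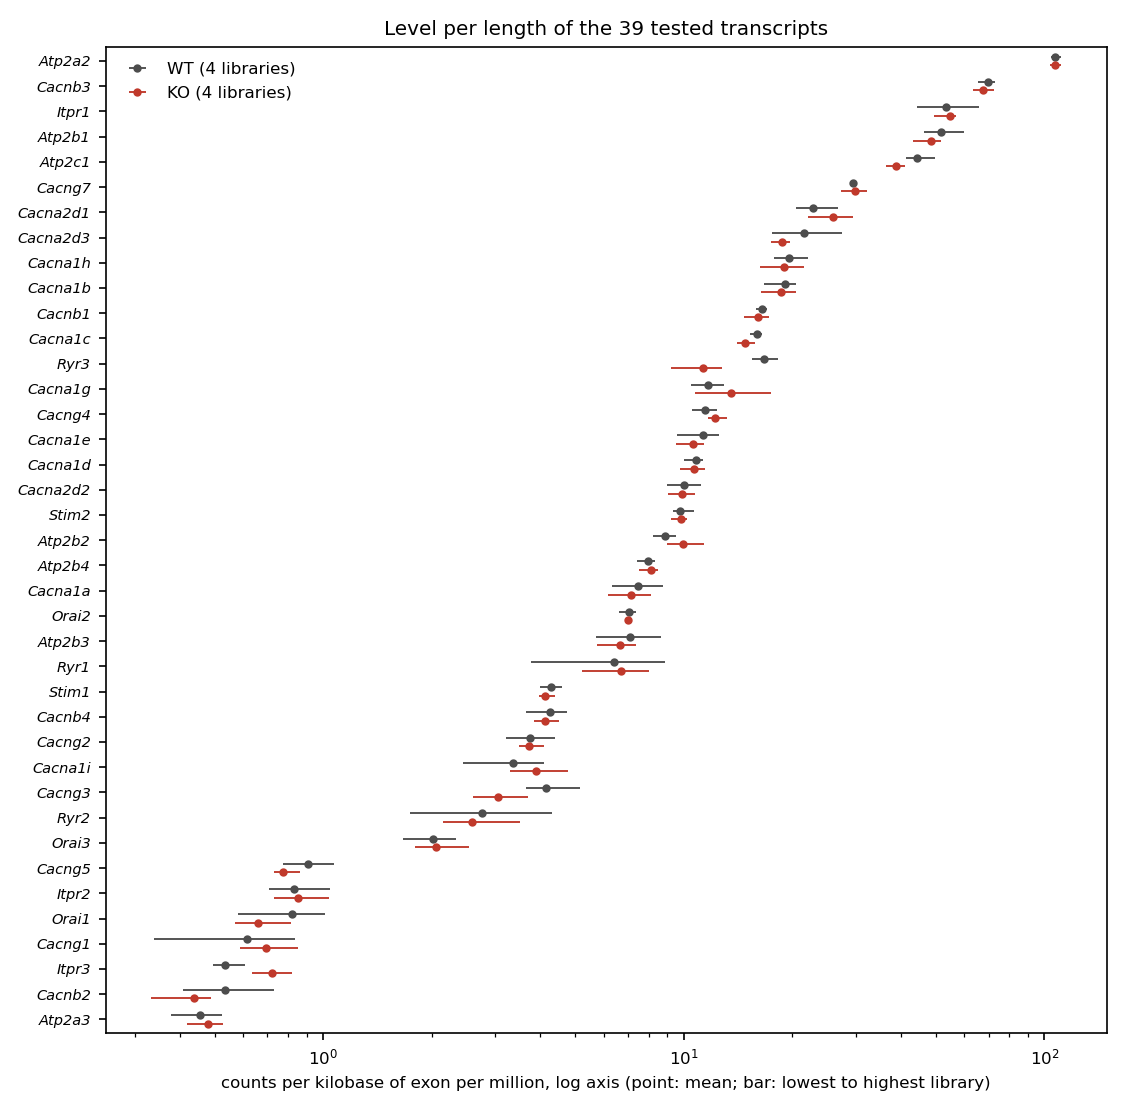
Level per length of the 39 tested members in CPKM, on a log axis; points are means of 4 libraries per genotype and bars run from the lowest to the highest library. WT and KO bars overlap for all members but Ryr3, Itpr3 and Atp2c1, while the members themselves span from 0.466 to 107.

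The 6 members that were not tested had between 3 and 48 counts in all libraries together and at most 10 in any single library. They were Cacna1s, the skeletal muscle pore, Atp2a1, the SERCA pump of fast muscle, Cacna1f, a pore of the retina, Cacna2d4, another subunit of retinal channels, Cacng6, a gamma subunit of muscle, and Atp2c2. These are the forms known from muscle, retina or secretory epithelia, and at this depth no difference between genotypes was detectable for them.

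The members are spread over 14 chromosomes, with some side by side. On chromosome 11, Cacng1, Cacng4 and Cacng5 follow each other with gaps of 15.8 kb and 80.05 kb, and their mean normalized counts were 14.3, 722 and 49.1 in KO and 12.7, 676 and 57.5 in WT, so neighbours differed widely in level and in the same way in both genotypes. On chromosome 7, Cacng7 and Cacng6 lie 57.6 kb apart, with the former abundant and the latter close to 0. The members are long genes, with a median exon length of 7145 bp against 3899 bp over all genes tested, and Ryr3, at 17703 bp, is the second longest of the tested members after Ryr2. With the trend of fold change with length removed, the log2 fold change of Ryr3 was -0.53.

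Replicate spread among the members was close to that of other genes. The median coefficient of variation over tested members was 10.8% in WT and 7.88% in KO, against 10.2% and 8.18% over all tested genes. The 95% interval of the fold change lay inside 0.25 on the log2 scale in both directions for 15 of the tested members, Atp2a2, Cacnb3, Cacna1b, Cacng7 and Stim2 among them. For the other 24, a change of 0.25 or more was within the interval, so similar values in these libraries do not show equal expression.

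The fold changes of the 4 members with an unadjusted p under 0.05 kept their direction under all 13 alternatives. Leaving out each library in turn gave log2 fold changes of -0.61 to -0.47 for Ryr3, 0.38 to 0.50 for Itpr3, -0.22 to -0.12 for Atp2c1 and -0.52 to -0.33 for Cacng3. Ryr3 and Itpr3 passed the thresholds of the study in all 8 such fits and Cacng3 in 5 of them.

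**Figure D4:**
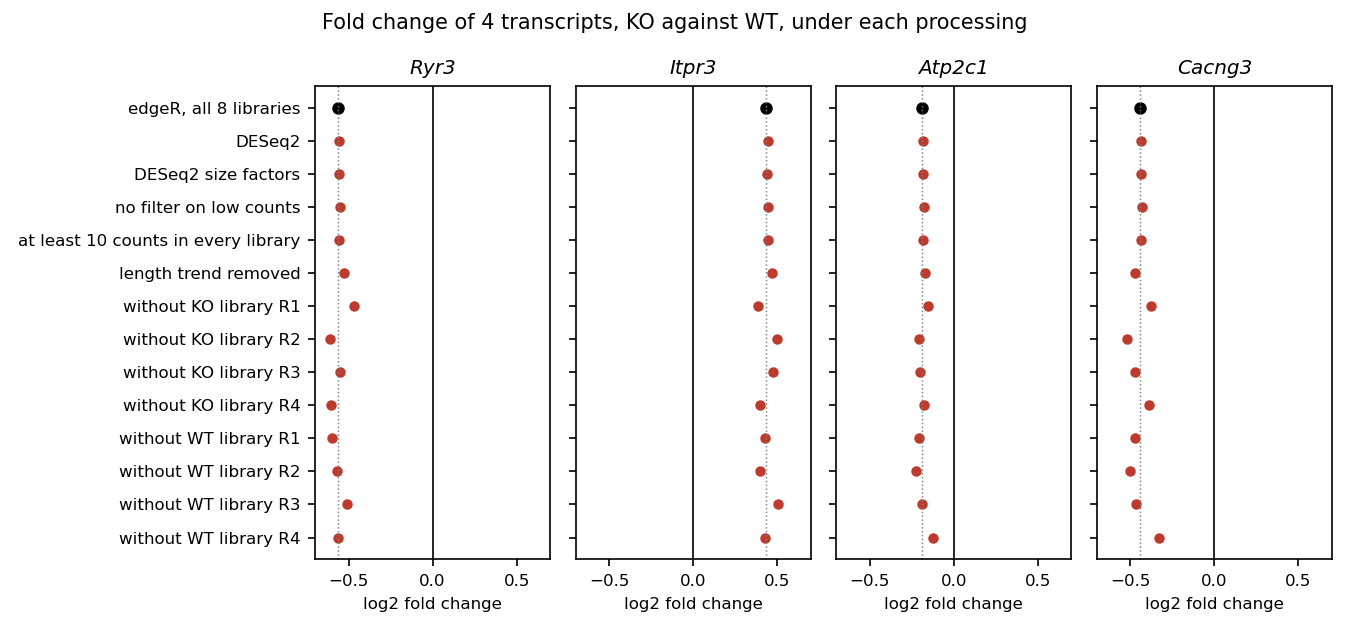
Log2 fold change of KO against WT for Ryr3, Itpr3, Atp2c1 and Cacng3 with edgeR on all 8 libraries (black, dotted line) and under each of the 13 alternatives (red). The points stay on 1 side of 0 for each gene, with Ryr3 between -0.61 and -0.47 and Itpr3 between 0.38 and 0.50.

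Other genes of calcium handling were read from 7 lists, and none of their genes passed an adjusted p of 0.05 by edgeR's quasi-likelihood test. Over all genes tested, 45.6% were higher in KO, 4.25% passed the thresholds of the study and 2.45% did so as higher genes, and the counts of the lists are to be read against these shares. Of the 10 tested genes of mitochondrial calcium uptake, 4 were higher in KO, with a median log2 fold change of -0.028. That list held 12 genes, but Mcu and Smdt1 were not found among the rows, so nothing is said of them. Of the 6 tested sodium-calcium exchangers, 3 were higher, and those with an unadjusted p under 0.05 were Slc8a1, the main exchanger of the plasma membrane, with 1635 to 1993 normalized counts in KO and 1451 to 1616 in WT (log2 fold change 0.23, standard error 0.068), and Slc24a4, a potassium-dependent exchanger, with 20.4 to 29.5 in KO and 31.7 to 43.9 in WT (-0.50, standard error 0.22). The exchangers Slc8a1 and Slc24a4 thus differed in opposite directions. Neither overlapped between genotypes, which held for 4.49% of all genes tested. Their adjusted p values by edgeR's test were 0.467 and 0.645.

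Among 21 tested cytosolic sensors and buffers, 12 were higher in KO and 3 passed the thresholds of the study, all higher. The smallest p values belonged to Ncald, a neuronal calcium sensor, with 900 to 1044 normalized counts in KO and 639 to 783 in WT (log2 fold change 0.40, standard error 0.078), and to Necab1, a calcium-binding protein of neurons, with 894 to 1113 in KO and 596 to 867 in WT (0.39, standard error 0.11). Neither gene overlapped between genotypes, as for 4.49% of all genes tested, and their adjusted p values by edgeR's test were 0.168 and 0.468. The third was Kcnip4, a partner of potassium channels, named here after its values were seen, with 92.7 to 143 in KO and 49.9 to 111 in WT. Among 22 calcium-dependent kinases and phosphatase genes, 10 were higher, and Camk4, a kinase that passes calcium signals to the nucleus, passed the thresholds of the study with 201 to 296 normalized counts in KO and 255 to 493 in WT (-0.62, standard error 0.19), with overlapping ranges.

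Proteins of the store lumen and partners of the release channels, such as calreticulin, junctophilins and Homer proteins, are encoded by 23 tested genes, of which 13 were higher and none had an unadjusted p under 0.05. Their summed counts were 49837 to 53370 in KO and 51944 to 53476 in WT. Of 14 tested partners of voltage-gated channels, 6 were higher, and Unc79, a subunit of the sodium leak channel complex, had 2032 to 2411 normalized counts in KO and 2341 to 2682 in WT (log2 fold change -0.19, standard error 0.067), while Rims2, a scaffold that holds calcium channels at release sites, had 811 to 1025 and 955 to 1079 (-0.19, standard error 0.081). Of 18 other calcium-permeable channels, 8 were higher, and Pkd2, a channel of cilia and the endoplasmic reticulum, had 705 to 754 in KO and 784 to 868 in WT (-0.16, standard error 0.059). These 3 genes were lower in KO by less than the fold threshold of the study.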

How the data were processed

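Poly-A RNA libraries (TruSeq Stranded, paired-end reads of 100 bp) were made from single cortices. Per the study's methods and processing notes, reads were quality-trimmed by the authors (Cutadapt 1.13, Prinseq), aligned to mm9 (TopHat2 2.0.13; SAMtools 0.1.19) and assigned to genes by HTSeq-count. They deposited whole-number counts without normalization. The strand setting and annotation of the counting are not given in the sources used here. Totals ranged from 9643711 to 27014858 counts per library. Embryos were separate animals, and no 2 libraries of a genotype agreed within sampling noise (smallest chi-square per degree of freedom 5.73).

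KO was compared with WT by the quasi-likelihood test of edgeR 4.0.16 (R 4.3.3), after TMM scaling, on the 12699 genes that filterByExpr retained, with Benjamini-Hochberg adjustment over all of them. A standard error is the log2 fold change divided by the square root of F, and 95% intervals use the t distribution with the fit's degrees of freedom. Levels per length divide counts by the merged exon length of NCBIM37, the assembly behind mm9, and by effective library size (CPKM). The procedure was tested on simulated data.

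Fold changes and tests are given for members with an unadjusted p under 0.05 or without overlap, and for the member of highest level per length in each of 13 families. Of the other calcium lists, genes past an adjusted p of 0.05 or the 2 smallest p under 0.05 were taken. Members and lists, the 13 lists of cell type markers included, were chosen with earlier results of these data known, and marker genes were named after their values were seen.

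The fit was repeated with DESeq2 1.42.0, with DESeq2's scaling inside edgeR, on all genes with a count, on genes with 10 counts or more throughout, after taking out the length trend, and with each library left out. Promoter and protein sequences were not used here. Some marker results are not reported here.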

Additional observations from a re-analysis of the deposited data

Results flagged for a closer look

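Each group of 4 libraries was searched for a highest or lowest value far from the others, over the 39 tested members, by Dixon's test at the 95% level. This singled out 2 of 78 groups, where chance alone gives about 1 in 20 groups (3.9).

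Itpr1, the main neuronal IP3 receptor, was low in KO library R1, with 8538 normalized counts, while the other 3 KO libraries lay between 9713 and 9825. WT libraries ranged from 7658 to 11356, so the value is inside the WT range. Ryr2 was high in KO library R4, with 1058 normalized counts, while the other 3 KO libraries lay between 647 and 709. WT library R4 was higher still, at 1292. Neither gene had an unadjusted p under 0.05, and no cause was tested.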

How the results depend on the processing

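Of the 195 fold changes given by the 15 named members under 13 alternatives, 169 kept direction and side of the adjusted threshold. No call could be lost, since none of these members passed that threshold with edgeR on all libraries. Members past an adjusted p of 0.05 were 0 with edgeR and with each library left out, but 1 (Ryr3) with DESeq2 (log2 fold change -0.5556), without a filter on low counts (-0.5521, adjusted p = 0.0499) and with the length trend removed (-0.5279, adjusted p = 0.0418). Over all of its alternatives the adjusted p of Ryr3 was between 1.61e-05 and 0.322, the highest without KO library R3. Members past the thresholds of the study were 2 to 5 with each library left out, 1 to 2 of them higher and 1 to 3 lower, against 3, 1 and 2 with all libraries. The 5 without WT library R3 included Cacna2d1 (0.27) and Cacna2d3 (-0.28). Cacna2d1 also passed without KO library R1 (0.26) and Cacna1g without KO library R3 (0.31). The naming rule was applied to the fit of all libraries, where Cacna2d3 and Cacna1g did not meet it.

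The 23 results that changed sign belonged to 7 members close to equality. Atp2a2 was 0.001545 with DESeq2, 0.001786 with its size factors, 0.004802 without a filter, 0.002716 with at least 10 counts in every library and 0.01687 with the length trend removed. With each library left out, log2 fold changes ran from -0.0163 to 0.0185 for Atp2a2, -0.0933 to 0.0277 for Cacna1b, -0.104 to 0.0377 for Cacna1h, -0.0174 to 0.0536 for Cacng7, -0.0288 to 0.163 for Itpr1, -0.0368 to 0.0135 for Orai2 and -0.0123 to 0.0502 for Stim2. The cause was not tested. Over all alternatives, the plasma membrane median ran from -0.0682 to 0.0111. The endoplasmic reticulum median ran from -0.0087 to 0.0512, and the sign of both was not stable. The plasma membrane median was 0.0111 without WT library R4, and the endoplasmic reticulum median was -0.0087 without WT library R3 and -0.0041 without WT library R4.

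No paired analysis was possible because the labels assign no litter to a column. Low counts limit what can be seen: Cacng1, with 109 counts in all libraries, had a standard error of 0.33 and Orai1, with 214, one of 0.25, and the 6 rarest members were not tested.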
